A study of Homo sapiens with 8 samples.

Results

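The mitochondrially encoded genes are the 37 genes carried on the human mitochondrial DNA, a small circular genome that each cell holds in many copies. They were chosen by position, as all genes annotated on chrM, and matched to the deposited tables by Ensembl identifier. They make up 37 of the 61125 genes in the tables. The set holds 13 mRNAs, 2 rRNAs and 22 tRNAs. Of these, 15 had counts and 15 passed the filter on low counts, among 14995 genes that passed in all.

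RNA was sequenced from U-937, a human pro-monocytic leukemia cell line, after 72 h of treatment. The 4 groups were LAA+ATRA (250 µM L-ascorbic acid, or vitamin C, together with 1 µM all-trans retinoic acid), ATRA alone, LAA alone, and vehicle (PBS and DMSO). ATRA is a retinoid that drives myeloid cells to mature. Each group had 2 libraries, 8 in all, and the labels give no genetic change in any group and do not say whether cells given a single compound also received the solvent of the other. Nothing in the labels says that replicates were separate cultures, so p-values measure the spread between these libraries, which may be technical.

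Mitochondrial DNA is copied into RNA from both strands as long precursors by the polymerase POLRMT with the factors TFAM and TFB2M. Enzymes cut the tRNAs out of the precursors, which frees the mRNAs and rRNAs lying between them, and most mRNAs then receive a short poly(A) tail. The 13 mRNAs encode core subunits of respiratory complexes I, III and IV and of ATP synthase, whose other subunits come from nuclear genes. The 2 rRNAs form the core of the mitochondrial ribosome, and the 22 tRNAs serve it.

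The mRNAs fall into 2 kinds by how their coding sequence ends. Of the 13, 6 end in a partial stop codon that only the poly(A) tail completes to TAA, and 7 carry all 3 bases. The last 20 bases are shown because a partial stop ties its RNA to the tail by which the library was made: mRNA was captured on poly-T beads. Tails were not measured for any mRNA, MT-ND6 included, so how fully each was captured is not known. Sequences are from GENCODE 29 transcripts on GRCh38, printed 5′ to 3′ on the coding strand, with the encoded stop bases in capitals.
MT-ND1 (chrM:3307-4262, + strand): agcattccccctcaaaccTA
MT-ND2 (chrM:4470-5511, + strand): ttttatactaataatcttaT
MT-CO3 (chrM:9207-9990, + strand): catctattgatgagggtctT
MT-ND3 (chrM:10059-10404, + strand): aggattagactgaaccgaaT
MT-ND4 (chrM:10760-12137, + strand): cattaccgggttttcctctT
MT-CYB (chrM:14747-15887, + strand): caaaatactcaaatgggccT
MT-ATP6 (chrM:8527-9207, + strand): acctgcacgacaacacaTAA
MT-CO1 (chrM:5904-7445, + strand): ccgtatacataaaatctAGA
MT-ND6 (chrM:14149-14673, - strand): agattgctcgggggaatAGG
MT-CO1 and MT-ND6 are annotated to end in AGA and AGG rather than in a standard stop codon.

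MT-ND6 differs from the other mRNAs by strand. It is the only mRNA annotated on the - strand, beside 8 of the 22 tRNAs, while the other 12 mRNAs, both rRNAs and 14 tRNAs lie on the + strand. The strands differ in base content, and the first 60 coding bases of MT-CO1 and MT-ND6 are shown with G in capitals to make that visible.
MT-CO1: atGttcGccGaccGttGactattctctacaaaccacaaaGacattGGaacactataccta
MT-ND6: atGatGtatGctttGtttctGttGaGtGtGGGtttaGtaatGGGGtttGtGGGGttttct
Over its 525 bases MT-ND6 held 35.6% G and 7.05% C, whereas MT-CO1 over 1542 bases held 16.2% G. Among the other 12 mRNAs, G ran from 6.28% in MT-ATP8 to the 16.2% of MT-CO1.

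Genes on this genome are packed tightly, and 2 pairs of mRNAs overlap by more than 1 base. The overlaps are shown in capitals, with 12 bases on each side, because reads within them belong to both genes.
MT-ATP8 and MT-ATP6 (chrM:8515-8584): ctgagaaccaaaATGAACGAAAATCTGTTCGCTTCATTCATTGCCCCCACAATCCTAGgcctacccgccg
MT-ND4L and MT-ND4 (chrM:10748-10778): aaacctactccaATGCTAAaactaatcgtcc
The first overlap spans 46 bases, which is 22.2% of MT-ATP8 and 6.75% of MT-ATP6, and the second spans 7 bases. Each pair is carried on a single mRNA, so their separate counts are an estimate, and summed values are given beside them where they matter.

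Library totals ran from 18462552 to 24166770 estimated counts. Of 10 myeloid marker genes, 9 were above 1 CPM (counts scaled to library size) in every library, and MPO reached 0.777 CPM at most. Of 8 markers of other lineages, 4 were at 0 in every library, while PECAM1 ran from 59.2 to 107 CPM. In each of the 15 detected mitochondrial genes, LAA+ATRA replicate 2 was above LAA+ATRA replicate 1, so results on that group are also given without replicate 2 where it changes them.

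Mitochondrial transcripts took the largest share of all counts in cells given both compounds. They held 4.84% and 6.65% of all counts in the LAA+ATRA libraries, 4.45% and 3.90% in the ATRA libraries, 3.75% and 3.33% in the LAA libraries, and 4.22% and 4.11% in the vehicle libraries. By counts, both LAA+ATRA libraries were above the other 6, and both LAA libraries were below the other 6. By summed FPKM, LAA+ATRA overlapped ATRA, with 7.82% in LAA+ATRA replicate 1 and 8.17% in ATRA replicate 1. The group means were 5.75% ± 1.28, 4.17% ± 0.390, 3.54% ± 0.303 and 4.16% ± 0.0803 (SD, n = 2 each) in that order. The 2 rRNAs made up 14.2% and 14.0% of the mitochondrial counts with LAA+ATRA and 14.4% and 15% with ATRA, against 18.2% and 17.8% with LAA and 18.2% and 19.6% with vehicle. The rRNA part was thus lower in all 4 libraries with ATRA than in all 4 without it. Beads capture RNA by its tail, and tail length was not measured.

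**Figure D1:**
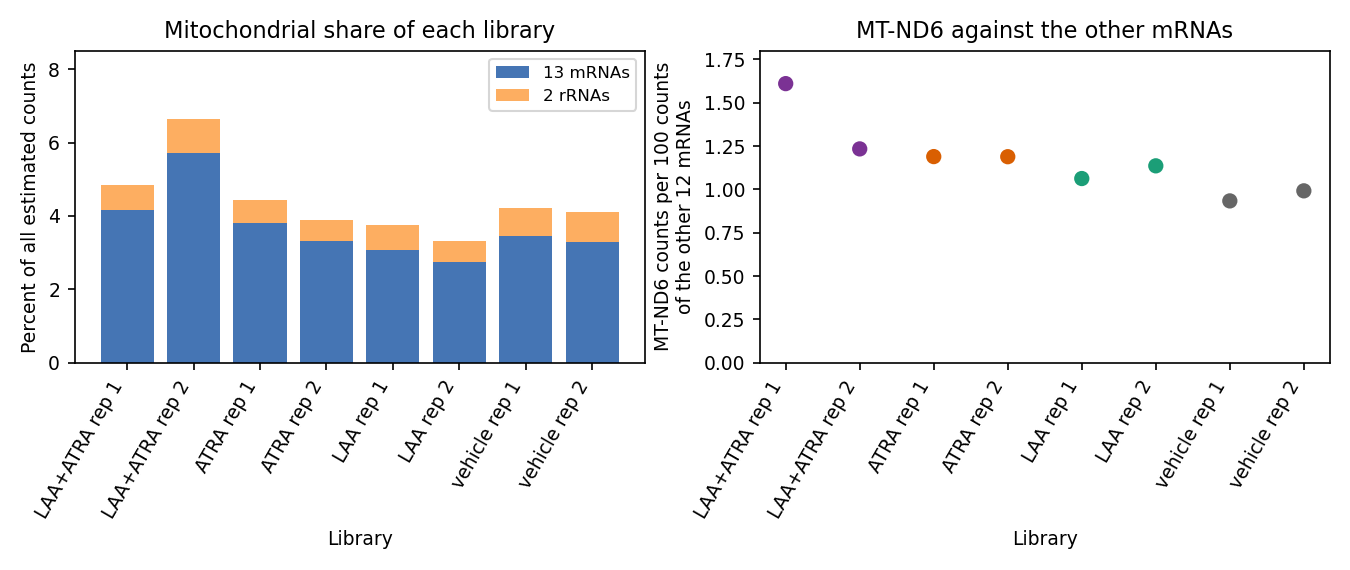
The left panel stacks the percent of all estimated counts held by the 13 mitochondrial mRNAs (blue) and the 2 rRNAs (orange) in each of the 8 libraries. The right panel plots MT-ND6 counts per 100 counts of the other 12 mitochondrial mRNAs, which ran from 0.934 in vehicle replicate 1 to 1.61 in LAA+ATRA replicate 1.

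All 22 tRNA genes, 59 to 75 bases long, were listed at 0 in every library. Libraries of this kind are not made to hold RNAs this short, so the zeros give no level for the tRNAs. They are MT-TA, MT-TC, MT-TD, MT-TE, MT-TF, MT-TG, MT-TH, MT-TI, MT-TK, MT-TL1, MT-TL2, MT-TM, MT-TN, MT-TP, MT-TQ, MT-TR, MT-TS1, MT-TS2, MT-TT, MT-TV, MT-TW and MT-TY.

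Levels between genes were compared as FPKM, which is scaled to gene length and library size. The 3 subunits of complex IV (cytochrome c oxidase), the enzyme that passes electrons to oxygen, supplied 48.4% and 49.5% of the summed mRNA FPKM with LAA+ATRA, 51.1% and 56.2% under ATRA, 48.0% and 47.2% under LAA, and 50.6% and 46.9% with vehicle. MT-CO3 was the most abundant mitochondrial gene in every group. It was at 18746 and 25163 FPKM with LAA+ATRA, 17860 and 18871 under ATRA, 13238 and 11783 under LAA, and 14938 and 13284 with vehicle. MT-CO1, the catalytic subunit, was at 10328 and 13708 FPKM with LAA+ATRA, 9684 and 8054 under ATRA, 6350 and 5711 under LAA, and 8022 and 7334 with vehicle. All 4 groups were apart for MT-CO1 on this scale, LAA lowest and LAA+ATRA highest. MT-CO2, which takes electrons from cytochrome c, was at 10854 and 15507 FPKM with LAA+ATRA, 9752 and 11134 under ATRA, 6800 and 5856 under LAA, and 7523 and 7125 with vehicle. For MT-CO2 and MT-CO3 the LAA+ATRA and ATRA libraries overlapped, and both of those groups were above LAA and vehicle.

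Complex I (NADH dehydrogenase), where electrons from NADH enter the chain, takes 7 of the 13 mRNAs, and their levels spread widely. MT-ND3 was at 9101 and 9936 FPKM with LAA+ATRA, 7137 and 8261 under ATRA, 5973 and 5106 under LAA, and 6115 and 6027 with vehicle. MT-ND4 was at 5456 and 7217 FPKM with LAA+ATRA, 4200 and 3502 under ATRA, 4374 and 3931 under LAA, and 4713 and 4802 with vehicle. MT-ND4 was thus higher with LAA+ATRA than with vehicle in every library and lower than vehicle with ATRA alone and with LAA alone. MT-ND4L, which shares its mRNA with MT-ND4, was at 3844 and 6693 FPKM with LAA+ATRA, 4907 and 3092 under ATRA, 5218 and 4332 under LAA, and 5224 and 7456 with vehicle. Its replicates were far apart, and LAA+ATRA overlapped every other group.

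MT-ND2 was at 2777 and 3969 FPKM with LAA+ATRA, 2221 and 2107 under ATRA, 1959 and 1804 under LAA, and 2126 and 2043 with vehicle. MT-ND1, which lies first among the mRNAs behind the rRNAs, was at 1896 and 2908 FPKM with LAA+ATRA, 1665 and 1303 under ATRA, 1414 and 1260 under LAA, and 1427 and 1548 with vehicle. For both genes the LAA+ATRA libraries were above all others, and ATRA overlapped vehicle. MT-ND5 was at 913 and 1437 FPKM with LAA+ATRA, 877 and 662 under ATRA, 514 and 465 under LAA, and 618 in both vehicle libraries. MT-ND6 was at 2676 and 2821 FPKM with LAA+ATRA, 1777 and 1774 under ATRA, 1193 and 1142 under LAA, and 1256 and 1215 with vehicle. For MT-ND5 and MT-ND6 none of the 4 groups overlapped on the FPKM scale. MT-ND6 lay above MT-ND5 in every library, by a factor of 1.96 to 2.93 per length.

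MT-CYB, the cytochrome b subunit and the single mitochondrial gene of complex III, was at 1786 and 2585 FPKM with LAA+ATRA, 1455 and 1077 under ATRA, 930 and 834 under LAA, and 972 and 948 with vehicle. MT-ATP6, a subunit of the proton channel of ATP synthase, was at 9718 and 12548 FPKM with LAA+ATRA, 7952 and 6778 under ATRA, 5883 and 5480 under LAA, and 6050 and 5595 with vehicle. MT-CYB was apart in all 4 groups, whereas MT-ATP6 overlapped between LAA and vehicle. MT-ATP8, the small ATP synthase subunit read from the same mRNA as MT-ATP6, was at 4414 and 5325 FPKM with LAA+ATRA, 3568 and 1160 under ATRA, 1147 and 1796 under LAA, and 1247 and 1135 with vehicle. The ATRA libraries for MT-ATP8 were far apart and overlapped both LAA and vehicle, so only LAA+ATRA stood apart.

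The rRNAs differed from each other by a factor of 6.07 to 8.51 per length. MT-RNR2, the large-subunit 16S rRNA, was at 5425 and 7128 FPKM with LAA+ATRA, 4919 and 4545 under ATRA, 4868 and 4282 under LAA, and 5523 and 5762 with vehicle. MT-RNR1, the small-subunit 12S rRNA, was at 884 and 977 FPKM with LAA+ATRA, 751 and 749 under ATRA, 679 and 583 under LAA, and 649 and 736 with vehicle. LAA+ATRA overlapped vehicle for MT-RNR2 and lay above it for MT-RNR1.

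By mean FPKM with vehicle the order was MT-CO3, MT-CO1, MT-CO2, MT-ND4L, MT-ND3, MT-ATP6, MT-RNR2, MT-ND4, MT-ND2, MT-ND1, MT-ND6, MT-ATP8, MT-CYB, MT-RNR1 and MT-ND5. The libraries of neighbours overlapped from MT-CO1 through to MT-RNR2 and between MT-ND6 and MT-ATP8, so those places are not resolved. With LAA+ATRA, MT-ATP8 stood 9th in place of 12th and MT-ND4L stood 8th in place of 4th. The neighbours of both overlapped there on at least 1 side.

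**Figure D2:**
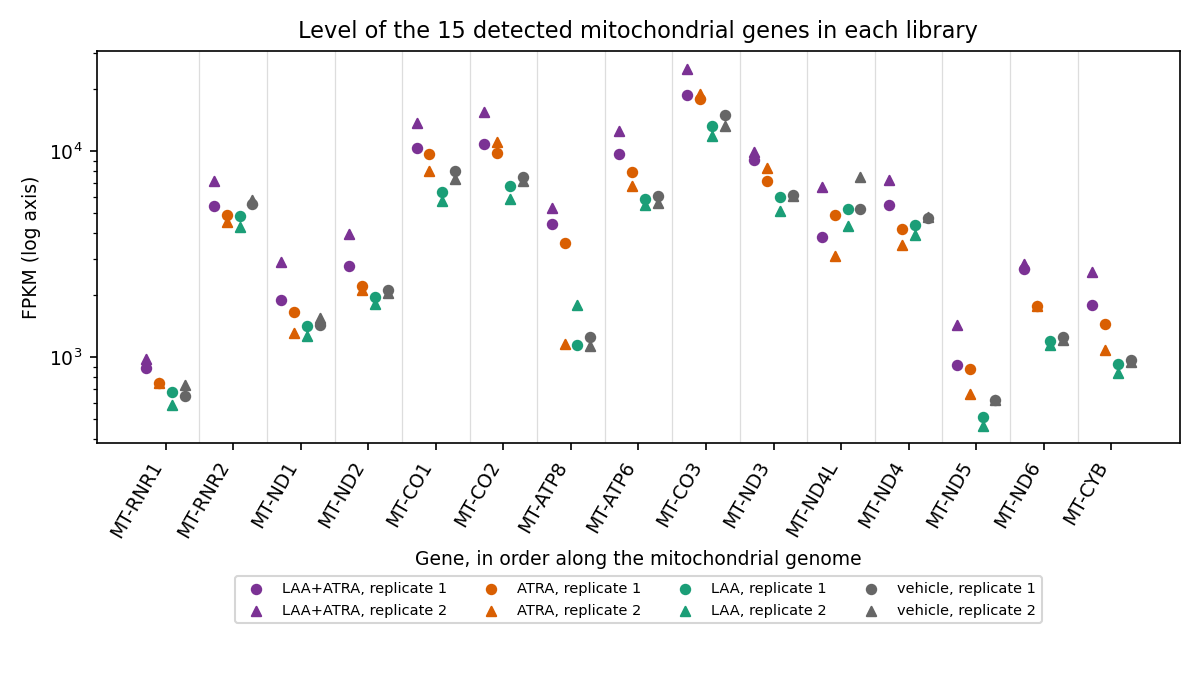
FPKM on a log axis for the 15 mitochondrial genes with counts, in genome order, with 1 point per library (circles replicate 1, triangles replicate 2) and colours for the 4 groups. Both LAA+ATRA points lie above both vehicle points for 13 genes, the exceptions being MT-RNR2 and MT-ND4L. The share of all genes with such a separation was not counted.

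LAA+ATRA against vehicle asks what both compounds together did. Of the 15 genes tested, 13 rose and none fell by the edgeR quasi-likelihood test (Benjamini-Hochberg adjusted p under 0.05), where 44.7% of all genes were called, 23.1% higher and 21.5% lower. The median change of the 15 was 0.73 on the log2 scale, beside 0.01 over all genes tested. MT-ND6 had 710 and 728 TMM-scaled CPM with LAA+ATRA and 302 and 307 CPM with vehicle. That is a log2 fold change of 1.24 ± 0.098 (SE), or 2.36-fold (adjusted p = 1.33e-06). MT-CO1 had 12910 and 16872 CPM with LAA+ATRA and 9829 and 9017 CPM with vehicle, a log2 fold change of 0.66 ± 0.14 (adjusted p = 0.00188).

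Among the others that rose, MT-CYB changed by 1.20 ± 0.17 on the log2 scale (adjusted p = 0.000126), MT-ATP6 by 0.98 ± 0.13 (adjusted p = 0.000102) and MT-ND5 by 0.95 ± 0.18 (adjusted p = 0.00113). MT-CO2 changed by 0.88 ± 0.14 (adjusted p = 0.000308), MT-ND3 by 0.78 ± 0.10 (adjusted p = 8.00e-05), MT-ND2 by 0.73 ± 0.14 (adjusted p = 0.00128) and MT-CO3 by 0.67 ± 0.13 (adjusted p = 0.00109). In CPM, both LAA+ATRA libraries were above both vehicle libraries in each of the 13 called genes. The share of all genes with such a separation was not counted. MT-ND1 (0.71 ± 0.17, adjusted p = 0.00535) also rose, as did MT-RNR1 (0.45 ± 0.11, adjusted p = 0.00557) and MT-ND4 (0.43 ± 0.13, adjusted p = 0.0201). MT-ATP8 had the widest change and the lowest counts, 114 and 139 CPM with LAA+ATRA and 31.2 and 26.0 CPM with vehicle (2.14 ± 0.41, adjusted p = 0.00115).

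MT-RNR2 (0.19 ± 0.13, adjusted p = 0.263) and MT-ND4L (-0.14 ± 0.29, adjusted p = 0.730) did not pass. Summed with the partner on its mRNA, MT-ATP8 with MT-ATP6 changed by 1.00 ± 0.14 (adjusted p = 9.33e-05) and MT-ND4L with MT-ND4 by 0.40 ± 0.14 (adjusted p = 0.0335). Of the 6 mRNAs with a partial stop codon, 6 rose, and of the 7 with a complete one, 6 rose. Without LAA+ATRA replicate 2, 11 of the 15 were called with a median of 0.46, and MT-ND1 (0.40, adjusted p = 0.0609) and MT-ND4 (0.22, adjusted p = 0.169) lost their call. MT-ND4 was also lost without either vehicle library and with limma on FPKM, and MT-ND1 and MT-RNR1 were lost without vehicle replicate 1.

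**Figure D3:**
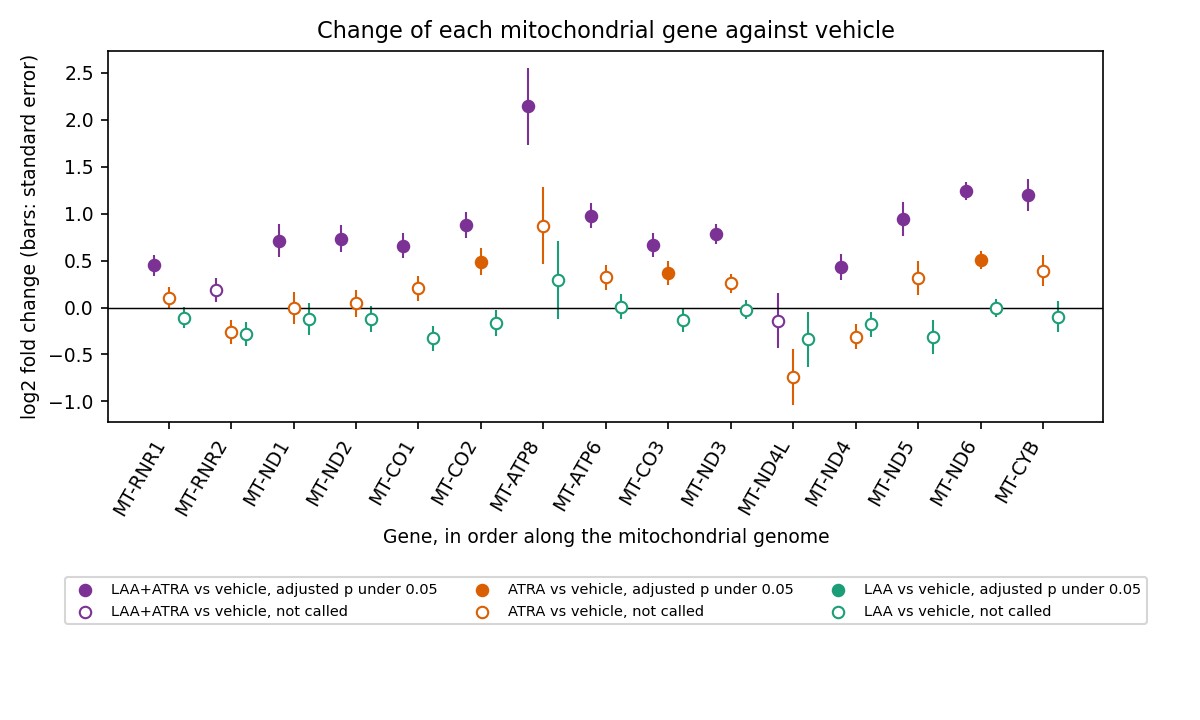
log2 fold change against vehicle, with standard error, for the 15 tested mitochondrial genes in genome order, under LAA+ATRA, ATRA and LAA. Filled points passed an adjusted p under 0.05: 13 with LAA+ATRA, 3 with ATRA and 0 with LAA, all upward. The 3 comparisons share the vehicle libraries.

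ATRA against vehicle asks what the retinoid did alone. Of the 15 genes, 3 were called higher and none lower by the edgeR quasi-likelihood test, where 42.9% of all genes were called, 21.9% higher and 21% lower. The part called higher was thus no larger than over all genes. The median change was 0.26 on the log2 scale, beside 0.00 over all genes, and it was 0.09 without ATRA replicate 1. MT-ND6 had 459 and 406 CPM with ATRA and 302 and 307 CPM with vehicle, a log2 fold change of 0.50 ± 0.097 (adjusted p = 0.00119). MT-CO2 changed by 0.49 ± 0.14 (adjusted p = 0.0133) and MT-CO3 by 0.36 ± 0.13 (adjusted p = 0.0345). MT-CO1, the other subunit of the same complex, had 11898 and 9804 CPM with ATRA and 9829 and 9017 CPM with vehicle (0.20 ± 0.14, adjusted p = 0.250). The remaining genes ran from -0.74 for MT-ND4L to 0.87 for MT-ATP8, without a call.

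The call on MT-ND6 was kept under each of 18 alternatives run, whereas those on MT-CO2 and MT-CO3 were lost without vehicle replicate 1, vehicle replicate 2 or ATRA replicate 2. Without ATRA replicate 1, MT-CO3 alone of the 3 was lost. The median of the 15 genes was 0.27 without vehicle replicate 1, 0.29 without vehicle replicate 2 and 0.34 without ATRA replicate 2. Calls in both directions appeared under other settings. They were 5 higher and 1 lower with DESeq2, where 6025 of all genes were called, 3083 of them higher. Without the low-count filter they were 7 higher and 3 lower, where 6635 of all genes were called, 3445 of them higher. Calls in both directions also appeared without ATRA replicate 1 and with either LAA+ATRA library left out.

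LAA against vehicle asks what ascorbic acid did alone. None of the 15 genes passed the edgeR quasi-likelihood test, and 2 had an unadjusted p under 0.05. Of all genes 0.0267% passed, 4 in number (0.02% higher and 0.00667% lower), while 2833 had an unadjusted p under 0.05. The median of the 15 was -0.12 on the log2 scale, beside 0.01 over all genes. That median was -0.22 without LAA replicate 1 and -0.06 without LAA replicate 2. In CPM, 7 of the 15 had both LAA libraries below both vehicle libraries, and the share of all genes with such a separation was not counted. MT-CO1 had 7896 and 7104 CPM with LAA and 9829 and 9017 CPM with vehicle, a log2 fold change of -0.33 ± 0.14 (adjusted p = 0.217). MT-ND6 had 310 and 298 CPM with LAA and 302 and 307 CPM with vehicle (0.00 ± 0.097, adjusted p = 0.995). The groups overlapped for MT-ND6 on this scale, though not in FPKM, where LAA was lower. Fitted to the LAA and vehicle libraries alone, 3 of the 15 were called lower and none higher, where 2187 of all genes were called, 1221 of them higher. DESeq2 and limma on FPKM each called 0 of the 15.

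LAA+ATRA against ATRA asks what ascorbic acid added in the presence of ATRA. Here 6 of the 15 genes rose and none fell, where 1.01% of all genes were called, 0.493% higher and 0.52% lower. The median was 0.63 on the log2 scale, beside 0.00 over all genes, and 14 of the 15 had both LAA+ATRA libraries above both ATRA libraries in CPM. The share of all genes with such a separation was not counted. The median was 0.40 without LAA+ATRA replicate 2. MT-ND6 had 710 and 728 CPM with LAA+ATRA and 459 and 406 CPM with ATRA, a log2 fold change of 0.73 ± 0.097 (adjusted p = 0.0179). The other 5 were MT-CYB (0.81 ± 0.17, adjusted p = 0.0466), MT-ND4 (0.74 ± 0.14, adjusted p = 0.0338), MT-ND2 (0.69 ± 0.14, adjusted p = 0.0466), MT-ATP6 (0.65 ± 0.13, adjusted p = 0.0466) and MT-ND3 (0.53 ± 0.10, adjusted p = 0.0433). They serve complex I, complex III and ATP synthase, though MT-ND1 (0.72 ± 0.17) and MT-ND5 (0.63 ± 0.18) of complex I did not pass.

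No complex IV mRNA passed, and a difference between complexes was not tested. MT-CO1 had 12910 and 16872 CPM with LAA+ATRA and 11898 and 9804 CPM with ATRA (0.46 ± 0.14, adjusted p = 0.107). MT-CO2 changed by 0.39 ± 0.14 (adjusted p = 0.161) and MT-CO3 by 0.30 ± 0.13 (adjusted p = 0.223). Most of these calls lie close to the threshold. Leaving out LAA replicate 1 or LAA replicate 2 gave 0 calls, and leaving out vehicle replicate 1, vehicle replicate 2, ATRA replicate 2 or LAA+ATRA replicate 2 gave 1 each. A fit to only the 4 libraries compared gave 0.

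**Figure D4:**
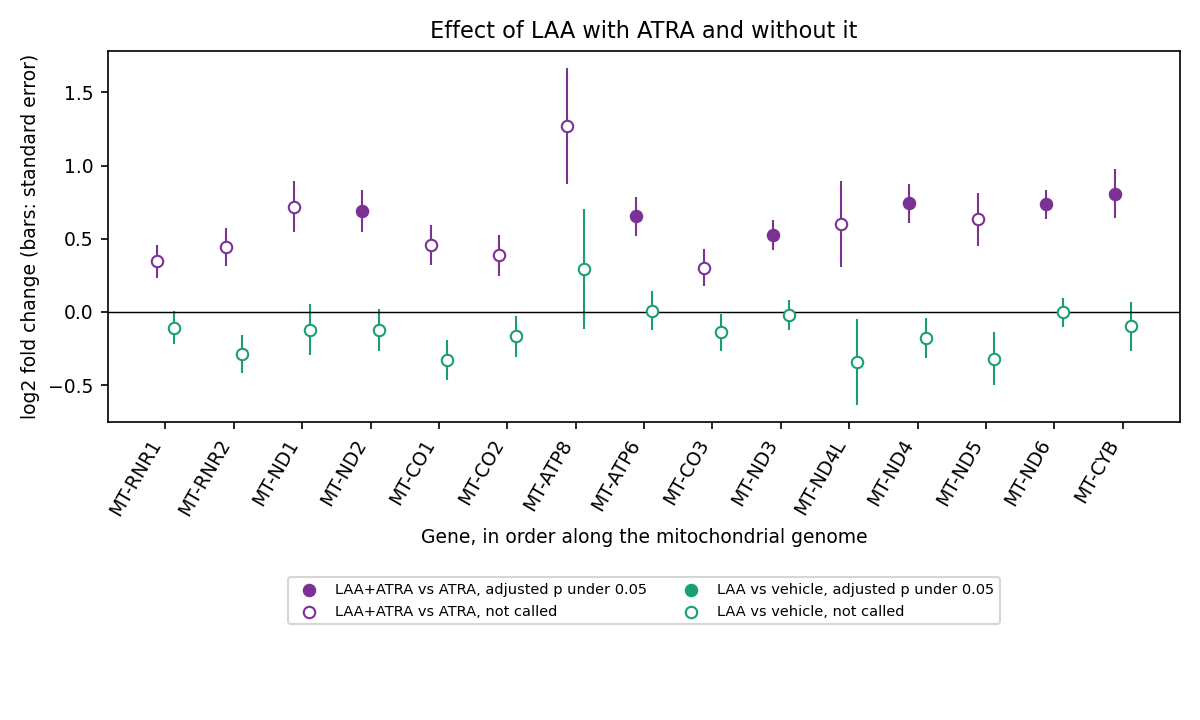
log2 fold change, with standard error, of LAA added to ATRA (LAA+ATRA against ATRA, purple) and of LAA alone (LAA against vehicle, green) for the 15 tested mitochondrial genes. The purple points run from 0.30 to 1.27 and the green ones from -0.34 to 0.29, with 6 filled points (adjusted p under 0.05) among the purple and 0 among the green.

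Whether LAA acted differently with and without ATRA was tested by the interaction, the log2 change of LAA+ATRA over ATRA less that of LAA over vehicle. No mitochondrial gene passed the edgeR quasi-likelihood test, where 0.00667% of all genes did, 1 gene, which was higher (0% were lower), and 747 had an unadjusted p under 0.05. All 15 values were positive, from 0.44 to 0.98, with a median of 0.79 beside -0.01 over all genes. The median was 0.52 without LAA+ATRA replicate 2. MT-ND6 had 0.74 ± 0.14 (unadjusted p = 0.000156, adjusted p = 0.383) and MT-CO1 had 0.79 ± 0.19 (adjusted p = 0.662). Of the 15, 14 had an unadjusted p under 0.05, and DESeq2 called 5, limma on FPKM 0, and edgeR without a low-count filter 12.

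LAA+ATRA against LAA asks what ATRA added in the presence of ascorbic acid. Here 14 of the 15 genes rose and none fell, where 36.4% of all genes were called, 18.4% higher and 18% lower. The median was 0.86 on the log2 scale. MT-ND6 had 710 and 728 CPM with LAA+ATRA and 310 and 298 CPM with LAA, a log2 fold change of 1.24 ± 0.098 (adjusted p = 1.50e-06). MT-CO1 had 12910 and 16872 CPM with LAA+ATRA and 7896 and 7104 CPM with LAA, a log2 fold change of 0.99 ± 0.14 (adjusted p = 0.000142).

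The other 12 that rose ran from 0.47 ± 0.13 for MT-RNR2 (adjusted p = 0.0128) to 1.85 ± 0.41 for MT-ATP8 (adjusted p = 0.00354), with MT-CYB at 1.30 ± 0.17 (adjusted p = 9.12e-05) and MT-ND5 at 1.26 ± 0.18 (adjusted p = 0.00019). MT-ND4L (0.20 ± 0.29, adjusted p = 0.635) did not pass, though summed with MT-ND4 the pair did (0.59 ± 0.14, adjusted p = 0.00573). MT-RNR2 lost its call without LAA replicate 2 (adjusted p = 0.120) and without LAA+ATRA replicate 2.

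Averaged over the other compound, ATRA raised 12 of the 15 genes, where 53.7% of all genes were called, 27.1% higher and 26.6% lower. MT-ND6 changed by 0.87 ± 0.069 (adjusted p = 4.95e-07) and MT-CO1 by 0.60 ± 0.096 (adjusted p = 0.000208). The 3 not called were MT-ND4 (0.15 ± 0.095), MT-RNR2 (0.11 ± 0.091) and MT-ND4L (-0.27 ± 0.21). Among the called genes, libraries with and without ATRA overlapped in CPM for MT-ND1, MT-ND2, MT-CO1, MT-ATP8 and MT-RNR1.

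LAA averaged over ATRA gave 3 calls among the 15 by the edgeR quasi-likelihood test, all higher. Of all genes 12.5% were called, 6.49% higher and 5.98% lower. The 3 were MT-ND6 (0.37 ± 0.068, adjusted p = 0.0094), MT-ATP6 (0.33 ± 0.094, adjusted p = 0.0406) and MT-ND3 (0.25 ± 0.074, adjusted p = 0.0439). In that order, LAA alone against vehicle changed them by -0.0027, 0.0071 and -0.022, and LAA+ATRA against ATRA by 0.73, 0.65 and 0.53. In each of the 3, libraries with and without LAA overlapped in CPM. MT-CO1 had 0.06 ± 0.096 (adjusted p = 0.717). Without LAA replicate 1 or vehicle replicate 1 none of the 15 was called. Leaving out LAA replicate 2, vehicle replicate 2, ATRA replicate 2 or LAA+ATRA replicate 2 gave 1, and leaving out ATRA replicate 1 or LAA+ATRA replicate 1 gave 6.

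The make-up of the mitochondrial mRNA pool does not depend on scaling between libraries, and it was set mainly by MT-CO1 and MT-CO3. As a percent of the counts of the 13 mRNAs, MT-CO1 held 28.8% and 28.3% with LAA+ATRA, 30.5% and 28.4% under ATRA, 26.8% in both LAA libraries, and 30.1% and 28.8% with vehicle. MT-ND4 held 13.2% and 13% with LAA+ATRA, 11.4% and 10.7% under ATRA, 15.9% and 16.0% under LAA, and 15.3% and 16.4% with vehicle. The MT-ND4 share was lower in all 4 libraries with ATRA than in all 4 without. MT-CYB held 3.41% and 3.63% with LAA+ATRA, 3.14% and 2.57% under ATRA, 2.68% in both LAA libraries, and 2.48% and 2.55% with vehicle. Its share was highest in both LAA+ATRA libraries.

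MT-ND6 also took a larger part of the pool in the treated libraries. Per 100 counts of the other 12 mRNAs it had 1.61 and 1.23 with LAA+ATRA, 1.19 in both ATRA libraries, 1.06 and 1.14 under LAA, and 0.934 and 0.992 with vehicle. All 6 treated libraries were above both vehicle libraries. Against MT-ND5, its neighbour on the opposite strand, its ratio of counts was 0.514 and 0.337 with LAA+ATRA, 0.352 and 0.412 under ATRA, 0.400 and 0.426 under LAA, and 0.329 and 0.334 with vehicle. That ratio of counts was above vehicle in all 6 treated libraries, with LAA+ATRA replicate 2 only just so. Per length (FPKM) the ratio was 2.93 and 1.96 with LAA+ATRA, 2.03 and 2.68 under ATRA, 2.32 and 2.46 under LAA, and 2.03 and 1.97 with vehicle. On that scale LAA+ATRA replicate 2 lay below both vehicle libraries and ATRA replicate 1 between them, so the order of the groups depends on the scale. The library kit named in the labels does not mark strand, so RNA of MT-ND6 and RNA from the opposite strand at the same place cannot be told apart in these counts.

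Copies of mitochondrial DNA in the nuclear genome are near-identical to some members and can take or lend reads. Of the 31-base windows of each transcript, the share also found in another annotated transcript was 66.7% for MT-CO1, 62.8% for MT-ATP6, 56.9% for MT-ND2 and 50.5% for MT-CO2. It was 30.7% for MT-ND6, 4.95% for MT-CYB, 3.48% for MT-ND3 and 0 for MT-RNR1. Of 420 such copies listed, 29 had counts and 4 passed 1 CPM in a group, all on chromosome 1 of GRCh38. MTATP6P1 held 5.56% of the counts of MT-ATP6, MTND2P28 0.562% of those of MT-ND2, MTCO1P12 0.308% of those of MT-CO1 and MTND1P23 0.106% of those of MT-ND1. Adding the copies to their members changed no count of mitochondrial genes called in any comparison.

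Among the nuclear genes that transcribe mitochondrial DNA and handle its RNA, more fell than rose in both groups with ATRA. Under ATRA, 21.9% of all genes were called higher and 21% lower, and under LAA+ATRA 23.1% higher and 21.5% lower. Of 9 transcription factors of mitochondrial DNA, 0 rose and 4 fell with LAA+ATRA (median -0.16), and 0 rose and 5 fell with ATRA (median -0.46). TFAM, which packs mitochondrial DNA and starts its transcription, averaged 39.9 ± 2.13 CPM with LAA+ATRA and 41.4 ± 7.18 with ATRA, against 69.6 ± 0.914 with vehicle (SD, n = 2 each). Its log2 fold changes were -0.80 ± 0.12 with LAA+ATRA (adjusted p = 0.000185) and -0.75 ± 0.12 with ATRA (adjusted p = 0.000298). The polymerase POLRMT changed by -0.36 ± 0.12 with LAA+ATRA (adjusted p = 0.0256) and -0.61 ± 0.12 with ATRA (adjusted p = 0.0014). TFB2M, its partner at the promoter, changed by -0.86 ± 0.17 with LAA+ATRA (adjusted p = 0.00122) and -0.75 ± 0.17 with ATRA (adjusted p = 0.00291).

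Of 8 genes for the stability and decay of mitochondrial RNA, 0 rose and 5 fell with LAA+ATRA (median -0.61), and 0 rose and 7 fell with ATRA (median -0.64). LRPPRC, which binds and stabilises mitochondrial mRNAs and supports their polyadenylation, averaged 205 ± 8.40 CPM with LAA+ATRA and 208 ± 12.7 with ATRA, against 436.6 ± 27.5 with vehicle (SD, n = 2 each). It changed by -1.09 ± 0.098 with LAA+ATRA (adjusted p = 3.71e-06) and -1.07 ± 0.098 with ATRA (adjusted p = 3.97e-06). Of the enzymes of RNA decay, PNPT1 and SUPV3L1 fell beside it. PNPT1, an exonuclease, averaged 29.8 ± 0.213 CPM with LAA+ATRA (adjusted p = 8.33e-06) and 29.9 ± 0.367 with ATRA (adjusted p = 7.52e-06), against 59.8 ± 3.22 with vehicle (SD, n = 2 each). SUPV3L1, the helicase that works with it, changed by -0.88 ± 0.14 with LAA+ATRA (adjusted p = 0.000233) and -0.98 ± 0.14 with ATRA (adjusted p = 0.000103). GRSF1, an RNA-binding protein of mitochondrial RNA granules, changed by -0.78 ± 0.10 with LAA+ATRA (adjusted p = 6.15e-05).

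Of 20 RNA processing genes, 3 rose and 7 fell with LAA+ATRA, and 2 rose and 8 fell with ATRA. PTCD2, a pentatricopeptide protein, changed by -1.01 ± 0.15 with LAA+ATRA (adjusted p = 0.000147), while FASTK rose by 0.68 ± 0.095 (adjusted p = 0.000119). The mitochondrial form of FASTK is known to be needed for the MT-ND6 mRNA. Counts per gene do not show which form of FASTK rose, and a link to MT-ND6 was not tested. FASTK averaged 71.2 ± 1.52 CPM with LAA+ATRA and 54.6 ± 0.279 with ATRA, against 44.6 ± 1.61 with vehicle (SD, n = 2 each). Of 14 genes for copying and keeping mitochondrial DNA, 3 rose and 5 fell with LAA+ATRA, and 2 rose and 5 fell with ATRA. The helicase TWNK changed by -1.06 ± 0.13 with LAA+ATRA (adjusted p = 3.67e-05), and the topoisomerase TOP1MT by 0.68 ± 0.10 (adjusted p = 0.000176). The number of mitochondrial DNA copies per cell was not measured.

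Genes that translate the mRNAs also fell more often than they rose in each list, though narrowly for the ribosome with LAA+ATRA. Of 17 aminoacyl-tRNA synthetases of the mitochondrion, 1 rose and 11 fell with LAA+ATRA (median -0.64), and 2 rose and 10 fell with ATRA (median -0.73). NARS2, which charges the asparagine tRNA, changed by -1.15 ± 0.13 with LAA+ATRA (adjusted p = 2.07e-05). Of 82 tested proteins of the mitochondrial ribosome, 17 rose and 19 fell with LAA+ATRA (median -0.02), and 9 rose and 33 fell with ATRA (median -0.24). MRPS6 averaged 193 ± 10.6 CPM with LAA+ATRA and 145 ± 19.9 with ATRA, against 56.4 ± 1.51 with vehicle (SD, n = 2 each). It rose by 1.78 ± 0.11 with LAA+ATRA (adjusted p = 2.26e-07). MRPS27 changed by -1.20 ± 0.10 with LAA+ATRA (adjusted p = 2.37e-06). Of 12 translation factors, 1 rose and 5 fell in each of the 2 comparisons, with TUFM, the elongation factor, at -0.51 ± 0.093 with LAA+ATRA (adjusted p = 0.000779).

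Among the nuclear partners of the encoded subunits, more rose than fell with LAA+ATRA in each complex. Of 37 nuclear complex I subunits, 16 rose and 3 fell with LAA+ATRA, and 10 rose and 5 fell with ATRA. NDUFB2 averaged 104 ± 18.2 CPM with LAA+ATRA and 79.8 ± 9.62 with ATRA, against 45.3 ± 1.62 with vehicle (SD, n = 2 each), and rose by 1.20 ± 0.13 with LAA+ATRA (adjusted p = 1.79e-05). Of 9 complex III subunits, 4 rose and 1 fell with LAA+ATRA, and 1 rose and 2 fell with ATRA. Of 11 complex IV subunits, 5 rose and 0 fell with LAA+ATRA, and 3 rose and 1 fell with ATRA. COX8A rose by 0.80 ± 0.12 with LAA+ATRA (adjusted p = 0.000154). Of 16 ATP synthase subunits, 6 rose and 2 fell with LAA+ATRA, and 2 rose and 4 fell with ATRA. ATP5F1E rose by 1.06 ± 0.10 with LAA+ATRA (adjusted p = 5.90e-06), whereas ATP5F1B, a catalytic subunit, fell by 0.57 on the log2 scale (adjusted p = 0.000433).

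Of 9 regulators of mitochondrial biogenesis, 2 rose and 6 fell with LAA+ATRA, and 1 rose and 4 fell with ATRA. MYC averaged 88.3 ± 5.09 CPM with LAA+ATRA and 72.8 ± 4.11 with ATRA, against 375.6 ± 20.3 with vehicle (SD, n = 2 each). PPARGC1A, a coactivator of mitochondrial genes, changed by -2.34 ± 0.17 with LAA+ATRA (adjusted p = 7.23e-07), and its partner receptor ESRRA rose by 0.96 ± 0.12 (adjusted p = 3.94e-05). With LAA against vehicle, no gene of any of these 12 lists was called, where 0.0267% of all genes were, 4 in number. The medians of the lists in that comparison ran from -0.11 for the regulators to 0.34 for complex IV on the log2 scale.

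For LAA averaged over ATRA, 12.5% of all genes were called, 6.49% higher and 5.98% lower. Higher were 36 of the 82 ribosomal proteins, 19 of the 37 complex I subunits, 4 of the 9 complex III subunits, 5 of the 11 complex IV subunits and 9 of the 16 ATP synthase subunits. In the other lists 6 of the 20 RNA processing genes, 2 of the 14 replication genes, 2 of the 12 translation factors and 1 of the 8 stability genes were higher, against 0 of the 9 transcription factors, 0 of the 17 synthetases and 0 of the 9 regulators of biogenesis. Of all these genes, 1 was called lower, PPARGC1A (-0.59 ± 0.12, adjusted p = 0.0123 by the edgeR quasi-likelihood test). Over all genes the 1870 calls became 109 without vehicle replicate 1, 608 without vehicle replicate 2, 398 without LAA replicate 1, 399 without LAA replicate 2 and 1090 without LAA+ATRA replicate 1, and the lists were not counted again under those settings.

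**Figure D5:**
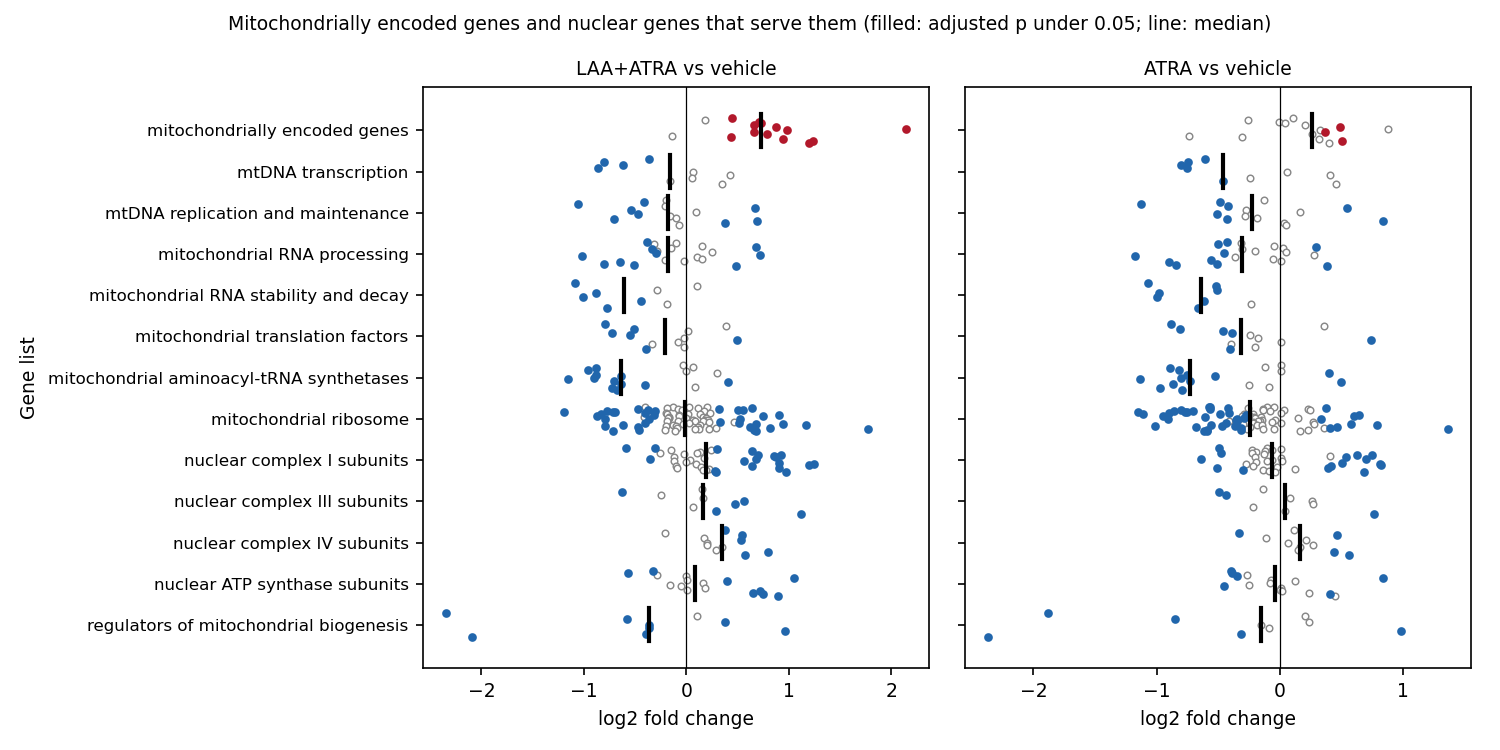
log2 fold change of each tested gene, by list, under LAA+ATRA (left) and ATRA (right) against vehicle, with filled points for an adjusted p under 0.05 and a black line at each list's median. The mitochondrially encoded genes (top, red where called) have medians of 0.73 and 0.26, while the genes for mitochondrial RNA stability have medians of -0.61 and -0.64.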

How the data were processed

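RNA from 8 U-937 libraries, enriched with poly-T beads per the labels' protocols, was analysed from 2 deposited tables. The deposited estimated counts are per gene and hold decimals, and Salmon 1.8.0 and DESeq2 1.36.0 are named with GRCh38 and hg38 in the submitters' processing notes. The authors also deposited FPKM, whose scaling, like the annotation, index and strand setting, is not given in the sources used here. Names, positions and sequences came from the GENCODE 29 annotation (GRCh38), which may not be the one used by the authors, whose tables gave 14 of the 37 genes a symbol.

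Counts were rounded, which changed 16.5% of values, filtered with filterByExpr, scaled by TMM and tested in edgeR 4.0.16 (R 4.3.3) with the quasi-likelihood F test over all 8 libraries and 14995 genes, with 4 group means, 4 residual degrees of freedom and Benjamini-Hochberg adjustment per comparison. P-values are two-sided, with calls made at an adjusted p under 0.05. The code was tested on simulated data. The value of 1 lineage marker is not reported here.

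Alternatives were DESeq2 1.42.0, RLE size factors, scaling without mitochondrial genes, no filter, a replicate block, only the libraries compared, limma 3.58.1 on log2 FPKM with 1 or 0.1 added, for genes at a mean of at least 1 FPKM, nuclear copies added, and leaving out each library, where the lone library left is taken to vary as the other groups do. Summing overlapping genes was added after seeing the data. Replicate numbers carry no stated meaning, so libraries were not paired. Members, lists and tests were chosen with earlier results of these data known. All members are named, with full statistics for MT-ND6, MT-CO1 and called members, and from each nuclear list part of up to 4 called genes by adjusted p.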

Additional observations from a re-analysis of the deposited data

Results flagged for a closer look

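In 7 genes, picked by this pattern, the libraries lay in opposite order in the 2 backgrounds. In CPM, every LAA library was below every vehicle library, while every LAA+ATRA library was above every ATRA library. None of the 7 was called for LAA against vehicle, and the share of all genes with this pattern was not counted. The test of the difference between backgrounds, the interaction, did not pass adjustment in any of the 7 by edgeR's quasi-likelihood test. MT-ND5 moved by 0.63 on the log2 scale with ATRA and -0.32 without it, a difference of 0.95 (adjusted p = 0.699). MT-ND4 moved by 0.74 and -0.18, a difference of 0.92 (adjusted p = 0.531). MT-CYB moved by 0.81 and -0.10, a difference of 0.91 (adjusted p = 0.662). The differences were 0.81 for MT-ND2, 0.79 for MT-CO1, 0.73 for MT-RNR2 (adjusted p = 0.662 for each) and 0.56 for MT-CO2 (adjusted p = 0.869).

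The same pattern held for ATRA in 2 genes, higher in the presence of LAA and lower without it, neither called for ATRA against vehicle. MT-ND4 moved by 0.61 with LAA and -0.31 without it, and MT-RNR2 by 0.47 and -0.26. Their differences are the same interaction values, 0.92 and 0.73. With 2 libraries in each group, such a pattern rests on 8 values per gene, and the genes share 1 genome and the same libraries.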

How the results depend on the processing

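Of 1023 values for named genes under alternatives, 903 kept direction and side of the threshold, 107 lost a call, 9 gained one and 4 turned sign, the last for changes near 0. MT-ND6 with LAA against vehicle, called in no alternative, ran from -0.0335 to 0.0261 without 1 library, above 0 without vehicle replicate 2 or LAA replicate 2. MT-CO1 with LAA averaged over ATRA ran from -0.0403 to 0.147, below 0 without ATRA replicate 2 or LAA+ATRA replicate 2. LAA+ATRA against vehicle (10 to 14 genes called without 1 library), LAA+ATRA against LAA (13 to 14) and averaged ATRA (11 to 14) stayed within 1.5 times their counts in all alternatives.

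Mitochondrial genes called for ATRA against vehicle were 6 with DESeq2, 10 without the filter, 1 with limma on FPKM at either pseudocount, and 1 to 9 without 1 library. For LAA against vehicle they were 1 without the filter and 3 with only the libraries compared. For LAA+ATRA against ATRA they were 10 with DESeq2, 13 without the filter, 1 with the replicate block, 0 with only the libraries compared, 0 with limma on FPKM, and 0 to 8 without 1 library. For the interaction they were 5 with DESeq2, 12 without the filter, and 0 to 2 without 1 library. For averaged LAA they were 5 with DESeq2, 8 without the filter, 1 with the replicate block, 0 with limma on FPKM, and 0 to 6 without 1 library.

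Over all genes, LAA against vehicle gave 713 calls with DESeq2, 828 without the filter, 2 with the replicate block, 2187 with only the libraries compared, 2 with limma on log2(FPKM + 1), and 0 to 469 without 1 library. LAA+ATRA against ATRA gave 705, 903, 30 and 15 under the first 4 of these, 6 and 4 with limma at pseudocounts of 1 and 0.1, and 6 to 172 without 1 library. The interaction gave 15 with DESeq2, 136 without the filter, 2 and 3 with limma, and 1 to 15 without 1 library. Averaged LAA gave 517 and 503 with limma, and 109 to 2144 without 1 library. ATRA against vehicle gave 6025 calls with DESeq2, 6635 without the filter, and 4952 and 4949 with limma at pseudocounts of 1 and 0.1. The cause of these moves was not tested.

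By FPKM the mitochondrial share was 9.31% with LAA+ATRA, 7.44% with ATRA, 5.76% with LAA and 7.03% with vehicle. On that scale the LAA+ATRA and ATRA libraries overlapped. As a percent of all counts, the mRNAs alone held 4.94% with LAA+ATRA, 3.56% with ATRA, 2.90% with LAA and 3.38% with vehicle. By FPKM, MT-ND6 held 2.91%, 2.53%, 2.24% and 2.07% of mitochondrial mRNA in the same group order. Replicate differences correlated between groups by -0.0727 to 0.0771, so the labels' numbers were not taken as pairs. With 2 libraries per group the spread is estimated from few values. Poly-T capture, the lack of strand marking and near-identical nuclear copies limit the levels, and tRNAs were not measured.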
